A study of Mus musculus with 6 samples.

Results

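Immune checkpoint genes encode inhibitory receptors that sit on activated T cells and natural killer (NK) cells, the ligands that engage them, and regulators of the state in which T cells carry them. Their transcripts were examined in hearts of mice given doxorubicin, an anthracycline chemotherapy drug that injures heart muscle. Of the 35618 genes in the deposited count table, 9 were taken by name: the receptor genes Pdcd1, Ctla4, Lag3, Tigit, Havcr2 and Cd160, the ligand genes Cd274 and Pdcd1lg2, and Tox, which encodes a transcription factor. All 9 had a row and all 9 passed the filter on low counts.

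The knockout animals were GSDMD-CKO mice, in which Gsdmd was knocked out specifically in the myocardium, and the controls were GSDMD-FLOX mice with floxed (flox/flox) alleles. Gsdmd encodes gasdermin D, which forms membrane pores in the inflammatory cell death called pyroptosis. Mice of both genotypes were 6 to 8 weeks old, received 20 mg/kg doxorubicin by intraperitoneal injection, and gave myocardial tissue 3 days later, with 3 RNA sequencing libraries from CKO and 3 from floxed mice. The Cre line, the strain, the sex and the animal behind each library are not stated in the labels, so the p-values reflect library-to-library spread, which may be technical, and no heart without doxorubicin was analysed here.

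PD-1 (encoded by Pdcd1) is engaged by PD-L1 (Cd274) and PD-L2 (Pdcd1lg2) and dampens signalling from the T cell receptor, while CTLA-4 competes with the costimulatory receptor CD28 for CD80 and CD86. LAG-3, TIGIT, TIM-3 (Havcr2) and CD160 are further receptors that limit T or NK cell responses, and TOX is required for the exhausted state of T cells under lasting antigen exposure. In heart muscle, PD-1, PD-L1 and CTLA-4 are known for restraining autoimmune attack, and antibodies against them can cause myocarditis in patients.

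Each library held between 17279147 and 18875902 counts, and the 9 checkpoint genes together took 1650, 7037 and 5651 counts in CKO libraries 1, 2 and 3 and 2010, 1767 and 2431 counts in floxed libraries 1, 2 and 3. Gsdmd measured 77.3 to 136 CPM (read counts divided by library size and set to a common scale) in CKO and 6696 to 8258 CPM in floxed libraries, the direction their labels give. In floxed libraries Gsdmd thus took about as many reads as the cardiomyocyte marker Tnnt2 (4747 to 8644 CPM) and more than Myh6 (1445 to 1677 CPM). Per length, as deposited FPKM, floxed Gsdmd was above both. It measured 2896 to 3339 FPKM, against 630 to 1072 FPKM for Tnnt2 and 221 to 240 FPKM for Myh6. The source of this high floxed level was not tested. Cardiomyocyte markers were abundant in all libraries, their summed level being 9518 to 19110 CPM in CKO and 15690 to 21770 CPM in floxed hearts. CKO library 1 stood apart from CKO libraries 2 and 3. Its summed levels of T cell, NK and cytotoxic, macrophage and monocyte, and cell division markers were lower. Mitochondrially encoded genes took 18.1% of its counts, against 10.2% and 5.48% in the other CKO libraries and 6.70% to 11.2% in floxed ones. The calls made without CKO library 1 are given beside the counts below. CKO libraries 2 and 3 also differed from the rest. CKO library 3 had the lowest summed cardiomyocyte level, 9518 CPM. Its summed endothelial level was the lowest too, at 534 CPM against 859 to 1188 CPM in floxed libraries. In CKO library 2 Myh6 measured 5693 CPM, against 1440 to 1840 CPM in all other libraries.

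All 9 genes had higher mean levels in CKO than in floxed hearts, and in CKO libraries 2 and 3 all 9 exceeded every floxed library. None of the 9 passed the threshold of an adjusted p under 0.05. In bulk tissue, fewer cells of a type and less RNA per cell cannot be told apart. Their log2 fold changes (CKO minus floxed) ran from 0.69 for Cd274 to 2.55 for Pdcd1. The median was 1.69, beside 0.03 over the 16591 genes tested. In edgeR's quasi-likelihood test, adjusted by Benjamini-Hochberg over all genes tested, 0 of 9 were called, where 0% of all genes were called as higher and 0.0121% in either direction. At an unadjusted p under 0.05, 7 of 9 were higher and 0 lower, where 4.37% of all genes were higher and 2.65% lower. The CKO libraries lay wholly above the floxed libraries for 4 of 9, namely Pdcd1, Ctla4, Lag3 and Tigit, where 5.82% of all genes did so and 5.98% lay wholly below. CKO libraries 2 and 3 exceeded all 3 floxed libraries for 9 of 9 genes, where 20.4% of all genes did so. These libraries held the highest levels of all 9 genes, so that count is a description only. DESeq2 called 4 of 9, the same 4 genes, where it called 0.741% of all genes as higher, and limma-voom called 0 of 9. On simulated counts DESeq2 made a larger share of false calls than edgeR. There DESeq2 also recovered more of the changes put in. It found 29.9% against 8.06% in edgeR at a log2 change of 1, and 85.1% against 59.1% at 2. At fold changes of this size, a gene not called by edgeR is not thereby shown to be unchanged. The simulated counts were drawn gene by gene, with no shift shared by many genes of a library. The shares recovered and the false calls may thus differ in these data. Without CKO library 1, edgeR called 7 of 9 as higher, all but the ligand genes Cd274 and Pdcd1lg2, where 2.41% of all genes were called as higher. Leaving out each of the other 5 libraries in turn, the same test called 0 of 9.

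**Figure D1:**
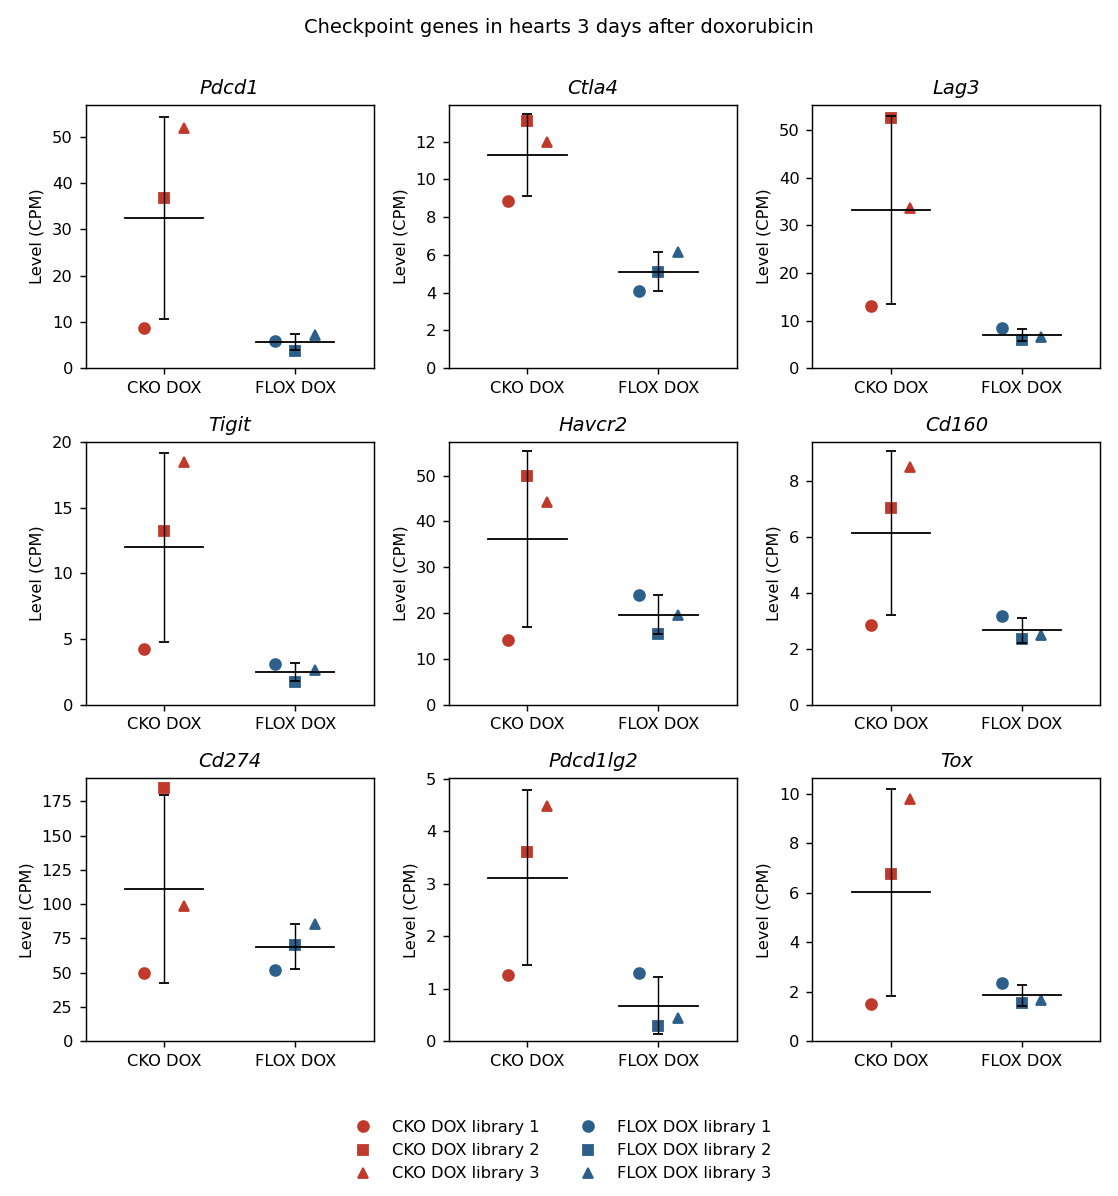
Level of each checkpoint gene in CPM (vertical axes) in the 3 CKO DOX and the 3 FLOX DOX libraries, with a panel for each gene; marker shapes give the library number, horizontal lines the mean and error bars the SD (n = 3). CKO libraries 2 and 3 lie above all floxed libraries in all 9 panels, and CKO library 1 lies above them for Pdcd1, Ctla4, Lag3 and Tigit only.

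**Figure D2:**
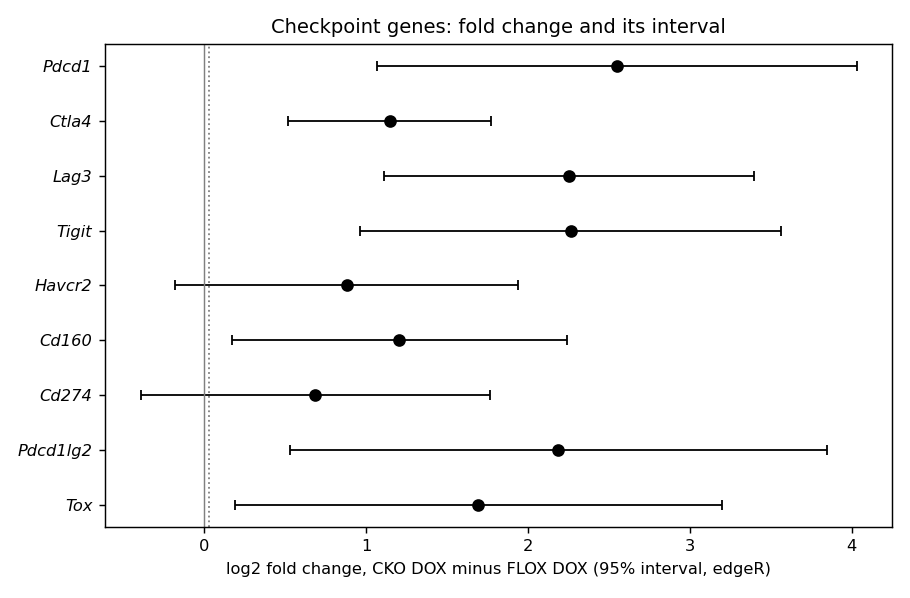
The log2 fold change of each checkpoint gene, CKO DOX minus FLOX DOX (horizontal axis), with its 95% interval from edgeR's quasi-likelihood fit; the solid line marks 0 and the dotted line the median of all genes tested (0.03). The intervals of Cd274 and Havcr2 include 0, and those of the other 7 genes lie above it before adjustment over all genes.

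Sequence upstream of the start site was available from RefSeq (GRCm38.p6) for 7 of the 9 genes. The 250 bases before the start are shown for 3 of them: Pdcd1 and Ctla4, which were higher in all 3 CKO libraries, and Cd274, the most abundant of the 9. The window of Tigit is not shown, because the bases after its RefSeq start were not found in its GENCODE transcripts. NFAT is the transcription factor family activated by calcium in stimulated T cells. Capitals mark matches to GGAAA on either strand, so that TTTCC is a match on the other strand.
Pdcd1 (chr1:94052554-94052803, minus strand): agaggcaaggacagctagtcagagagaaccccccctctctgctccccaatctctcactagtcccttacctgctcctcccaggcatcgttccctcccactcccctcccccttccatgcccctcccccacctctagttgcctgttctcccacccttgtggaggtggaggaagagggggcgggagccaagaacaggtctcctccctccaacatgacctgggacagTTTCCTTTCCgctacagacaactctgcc
Ctla4 (chr1:60908775-60909024, plus strand): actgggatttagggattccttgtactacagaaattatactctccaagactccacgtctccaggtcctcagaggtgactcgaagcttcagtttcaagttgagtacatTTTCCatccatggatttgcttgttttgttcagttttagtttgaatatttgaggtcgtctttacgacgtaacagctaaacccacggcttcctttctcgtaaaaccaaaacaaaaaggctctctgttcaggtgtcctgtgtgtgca
Cd274 (chr19:29367188-29367437, plus strand): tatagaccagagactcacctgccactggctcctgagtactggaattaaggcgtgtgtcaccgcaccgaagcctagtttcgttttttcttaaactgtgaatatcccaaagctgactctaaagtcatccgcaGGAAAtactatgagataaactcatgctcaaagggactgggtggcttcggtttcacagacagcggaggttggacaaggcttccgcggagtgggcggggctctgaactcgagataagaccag
The core GGAAA occurred in a 250-base window of 6 of the 7 genes, all but Havcr2, and in 55.6% of the 32851 RefSeq windows of that length. Here and below a gene counts if any of its windows matched, whereas the share is per window, so the 2 are not fully alike. Cd160 had 1 window with a match and another with 0. The 6 genes include Tigit, whose start was set aside above. In Pdcd1 its 2 matches adjoined, at -28 to -24 and -23 to -19 relative to the start, in Ctla4 a match lay at -144 to -140, and in Cd274 the single match lay at -120 to -116. The AP-1 motif TGANTCA was found in Havcr2 alone and in 6.75% of all windows. The motif of the interferon regulatory factors, GAAA repeated after a gap, was found in 0 of 7 genes and in 2.98% of all windows. These are matches of letters within these windows, with both strands searched, and a GGAAA can also overlap the interferon regulatory factor motif.

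Pdcd1 (ENSMUSG00000026285, chromosome 1, 93966027 to 93980278, minus strand, protein-coding) had the largest fold change of the 9. The positions given here and below are those of the deposited table, and they differ from the GRCm38.p6 positions of the promoters. The submitters' processing notes name the build mm10 but do not tie it to this table, so the build of these positions was not settled. Pdcd1 measured 8.68, 36.8 and 51.8 CPM in CKO libraries 1, 2 and 3, against 5.91, 3.65 and 7.06 CPM in floxed libraries 1, 2 and 3. The lowest CKO library was just above the highest floxed library, while the other CKO libraries were several times higher. The means were 32.4 ± 21.9 CPM in CKO and 5.54 ± 1.73 CPM in floxed hearts (SD, n = 3 each). This was a log2 fold change of 2.55 (SE 0.63, 95% interval 1.07 to 4.03), and edgeR's quasi-likelihood test gave an adjusted p of 0.529. The adjusted p was 0.00598 in DESeq2 and 0.0105 in edgeR without CKO library 1, and it lay between 0.00598 and 0.9999 over the 15 alternatives.

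Lag3 (ENSMUSG00000030124, chromosome 6, 124881324 to 124888668, minus strand) encodes a receptor related to CD4 that binds MHC class II. It measured 13.1, 52.7 and 33.7 CPM in CKO libraries 1, 2 and 3, against 8.40, 5.87 and 6.62 CPM in floxed libraries 1, 2 and 3. All CKO libraries lay above all floxed libraries, with library 2 rather than library 3 the highest. CKO minus floxed was 2.25 on the log2 scale (SE 0.48, edgeR adjusted p = 0.529), the smallest p of the 9 at rank 67 among all genes tested. The adjusted p was 0.00276 in DESeq2 and 0.00990 in edgeR without CKO library 1, within a range of 0.00276 to 0.9999 over the alternatives.

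Tigit (ENSMUSG00000071552, chromosome 16, 43469230 to 43484509, minus strand) encodes a receptor of T and NK cells for CD155 (Pvr). Its levels were 4.24, 13.2 and 18.4 CPM in CKO libraries 1, 2 and 3, against 3.11, 1.74 and 2.61 CPM in floxed libraries 1, 2 and 3. The genotypes did not overlap, and CKO library 3 was the highest, as for Pdcd1. Their log2 fold change came to 2.27 (SE 0.55, edgeR adjusted p = 0.529). DESeq2 gave 0.00910 and edgeR without CKO library 1 gave 0.0125, the range over the alternatives being 0.00910 to 0.9999.

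Ctla4 (ENSMUSG00000026011, chromosome 1, 60926159 to 60954991, plus strand) had a smaller and more even difference. It measured 8.87, 13.1 and 12.0 CPM in CKO libraries 1, 2 and 3, against 4.10, 5.09 and 6.14 CPM in floxed libraries 1, 2 and 3. CKO library 1 lay closer to CKO libraries 2 and 3 for this gene than for any other of the 9: the means were 11.3 ± 2.18 and 5.11 ± 1.02 CPM (SD, n = 3 each), in CKO and floxed hearts. A log2 fold change of 1.15 (edgeR adjusted p = 0.529) carried the smallest SE of the 9, 0.27. The adjusted p was 0.0111 in DESeq2 and 0.0423 in edgeR without CKO library 1, in a range of 0.0111 to 0.9999 over the alternatives.

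Havcr2 (ENSMUSG00000020399, chromosome 11, 46345762 to 46372082, plus strand) encodes TIM-3, which macrophages and dendritic cells carry as well as T cells. It measured 14.2, 50.0 and 44.3 CPM in CKO libraries 1, 2 and 3, against 23.9, 15.4 and 19.7 CPM in floxed libraries 1, 2 and 3. CKO library 1 lay below every floxed library and CKO libraries 2 and 3 above every one, so the genotypes overlapped. With all libraries the log2 fold change was 0.88 (SE 0.45, 95% interval -0.18 to 1.94, edgeR adjusted p = 0.777), and it was 1.24 with an adjusted p of 0.0273 without CKO library 1. That was the only 1 of the 15 alternatives to call Havcr2. The adjusted p was 0.651 in DESeq2, in a range of 0.0273 to 0.9999 over the alternatives.

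Cd160 (ENSMUSG00000038304, chromosome 3, 96706079 to 96736667, minus strand) encodes a receptor of NK and CD8 T cells that binds HVEM (Tnfrsf14). It measured 2.85, 7.06 and 8.52 CPM in CKO libraries 1, 2 and 3, against 3.16, 2.34 and 2.50 CPM in floxed libraries 1, 2 and 3. CKO library 1 lay inside the floxed range, near its upper end. On the log2 scale the difference was 1.20 (SE 0.44, edgeR adjusted p = 0.643), and 1.53 with an adjusted p of 0.0360 without CKO library 1. That was the only 1 of the 15 alternatives to call Cd160. The adjusted p was 0.252 in DESeq2, in a range of 0.0360 to 0.9999 over the alternatives.

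Of the ligands of PD-1, Cd274 (ENSMUSG00000016496, chromosome 19, 29344855 to 29365495, plus strand) was the most abundant of the 9 genes and had the smallest fold change. It measured 49.8, 185 and 98.6 CPM in CKO libraries 1, 2 and 3, against 52.0, 69.9 and 85.3 CPM in floxed libraries 1, 2 and 3. CKO library 1 was below all floxed libraries and CKO library 3 only 1.43 times the floxed mean, so that the difference rested mainly on CKO library 2. Its log2 fold change was 0.69 (SE 0.46, 95% interval -0.39 to 1.76, edgeR adjusted p = 0.863). It was 0.10 without CKO library 2, and no alternative called it.

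Pdcd1lg2 (ENSMUSG00000016498, chromosome 19, 29388319 to 29448561, plus strand), its neighbour on the chromosome, rested on few reads: 20, 69 and 90 counts in CKO libraries 1, 2 and 3, against 25, 5 and 8 counts in floxed libraries 1, 2 and 3. In CPM these were 1.27, 3.61 and 4.49 in CKO libraries 1, 2 and 3 and 1.30, 0.300 and 0.434 in floxed libraries 1, 2 and 3. CKO library 1 and floxed library 1 were at about the same level, and the other CKO libraries were above all floxed libraries. On these reads the log2 fold change was 2.19 (SE 0.70, edgeR adjusted p = 0.607), and no alternative called it. It was 3.06 without floxed library 1 and 0.92 on log2(FPKM + 1). A noncoding gene on the opposite strand, A930007I19Rik, overlaps Pdcd1lg2 and held 54, 56 and 42 counts in CKO libraries 1, 2 and 3, against 20, 25 and 23 counts in floxed libraries 1, 2 and 3. The sources used here do not say whether counting used the strand, so reads of these overlapping genes may not be told apart. For Cd274 the overlapping antisense gene Gm36043 held at most 124 counts, and for Ctla4, Tox and Cd160 the overlapping genes held at most 5 counts.

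Tox (ENSMUSG00000041272, chromosome 4, 6686353 to 6991557, minus strand) measured 1.52, 6.74 and 9.77 CPM in CKO libraries 1, 2 and 3, against 2.33, 1.56 and 1.68 CPM in floxed libraries 1, 2 and 3. CKO library 1 held the lowest level of all 6 libraries and CKO library 3 the highest. Tox had a log2 fold change of 1.69 (SE 0.64, edgeR adjusted p = 0.664), and 2.13 with an adjusted p of 0.0226 without CKO library 1. That was the only 1 of the 15 alternatives to call it. The adjusted p was 0.230 in DESeq2, in a range of 0.0226 to 0.9999 over the alternatives.

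Levels of different genes were compared per length, as deposited FPKM. In CKO hearts the order of mean FPKM was Cd274 (31.3 ± 19.6), Pdcd1 (17.6 ± 12.7), Lag3 (16.2 ± 9.89), Havcr2 (13.7 ± 7.77), Tigit (13.6 ± 8.89), Ctla4 (4.92 ± 1.25), Cd160 (2.41 ± 1.29), Pdcd1lg2 (1.65 ± 0.972) and Tox (0.827 ± 0.613), each as mean and SD of n = 3 libraries. In floxed hearts it was Cd274 (19.0 ± 4.41), Havcr2 (7.23 ± 1.80), Lag3 (3.31 ± 0.725), Pdcd1 (2.87 ± 0.944), Tigit (2.71 ± 0.837), Ctla4 (2.18 ± 0.416), Cd160 (1.01 ± 0.197), Pdcd1lg2 (0.350 ± 0.288) and Tox (0.247 ± 0.0643 FPKM). Neighbours from Pdcd1 to Tigit in the CKO order, and from Lag3 to Tigit in the floxed order, differed by less than 1 SD of either gene. The PD-L1 transcript was the most abundant in every library, followed by that of TIM-3 in every floxed library. In CKO hearts the PD-1 transcript came next by the mean, but among single libraries only in CKO library 3. Lag3 came next in CKO libraries 1 and 2, at 5.68 and 25.3 FPKM against 4.10 and 19.3 FPKM for Pdcd1.

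The 9 genes differed in which CKO library was highest. Cd274 in CKO library 2 was 1.87 times its CPM in CKO library 3, Lag3 1.56 times, Havcr2 1.13 times and Ctla4 1.09 times, whereas the ratio was 0.690 for Tox, 0.710 for Pdcd1, 0.717 for Tigit, 0.804 for Pdcd1lg2 and 0.828 for Cd160. In CKO library 1 the level was 0.721 to 1.88 times the floxed mean, being above 1.5 for Pdcd1, Ctla4, Lag3, Tigit and Pdcd1lg2 and below 1 for Cd274, Havcr2 and Tox.

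T cell marker transcripts were high in CKO libraries 2 and 3, as the receptor transcripts were. The 11 T cell markers were all tested and all had positive log2 fold changes, their median being 2.23. In edgeR 0 of 11 passed over all genes, 10 of 11 had an unadjusted p under 0.05, and DESeq2 called 7 of 11. Of all genes, edgeR called 0.0121% in either direction, 4.37% were higher at that unadjusted p, and DESeq2 called 0.741% as higher. No marker was at 0 in all libraries. Their summed level was 149, 680 and 749 CPM in CKO libraries 1, 2 and 3, against 169, 69.0 and 109 CPM in floxed libraries 1, 2 and 3. Cd8a, a coreceptor of cytotoxic T cells, had a log2 fold change of 2.45, Trac, the T cell receptor alpha constant chain, 2.34, Cd8b1 2.24 and Cd3d, a chain of the T cell receptor complex, 2.33, with edgeR adjusted p-values of 0.529 to 0.571. Cd4 measured 1.71, 8.42 and 23.3 CPM in CKO libraries 1, 2 and 3, against 9.59, 2.22 and 2.28 CPM in floxed libraries 1, 2 and 3. Per length, Cd8a exceeded Cd4 in every library, at 7.81, 39.7 and 44.6 FPKM against 0.390, 2.12 and 6.31 FPKM for Cd4 in CKO libraries 1, 2 and 3. In floxed libraries 1, 2 and 3 it was 7.45, 3.43 and 5.35 FPKM for Cd8a against 2.45, 0.530 and 0.570 FPKM for Cd4.

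Receptor levels were then set against the summed CPM of the CD3 chain genes Cd3d, Cd3e and Cd3g in the same library. This is a ratio of bulk levels and not a level per T cell, since NK and myeloid cells also carry some of these receptors. Pdcd1 came to 29.9%, 22.1% and 30.1% of the CD3 sum in CKO libraries 1, 2 and 3, against 15.8%, 26.1% and 28.1% in floxed libraries 1, 2 and 3. The genotypes overlapped, with a log2 difference of 0.26 (CKO minus floxed; exact permutation test, two-sided, p = 0.5, n = 3 each). The ratios of Lag3 and Tigit also overlapped, with log2 differences of 0.06 and 0.07 (exact permutation p = 0.9 for each, n = 3 each), and their sign turned to -0.23 and -0.15 without CKO library 1. It also turned without floxed library 1, to -0.13 and -0.08, and for Lag3 without floxed library 3, to -0.02. Between 3 libraries and 3, the smallest p this test can give is 0.1, and 10 ratios were tested. A p of this size does not show that the ratios are alike.

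Ctla4 to CD3 was 30.5%, 7.85% and 6.95% in CKO libraries 1, 2 and 3, against 11.0%, 36.3% and 24.4% in floxed libraries 1, 2 and 3 (log2 difference -0.85, exact permutation p = 0.3, n = 3 each). It was high in CKO library 1 and in floxed libraries 2 and 3, and lowest in the 2 libraries with the most CD3 transcript. Cd160 to CD3 overlapped as well (log2 difference -0.92, exact permutation p = 0.2, n = 3 each). Tox to CD3 was 5.23%, 4.05% and 5.67% in CKO libraries 1, 2 and 3, against 6.25%, 11.1% and 6.70% in floxed libraries 1, 2 and 3, every CKO library below every floxed library. Havcr2 to CD3 was 48.8%, 30.0% and 25.7% in CKO libraries 1, 2 and 3, against 64.0%, 110% and 78.2% in floxed libraries 1, 2 and 3, again with no overlap. The log2 differences of Tox and Havcr2 were -0.65 and -1.29, each at the smallest exact permutation p, 0.1, and at 0.25 after Benjamini-Hochberg adjustment over the 10 ratios (n = 3 each).

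**Figure D3:**
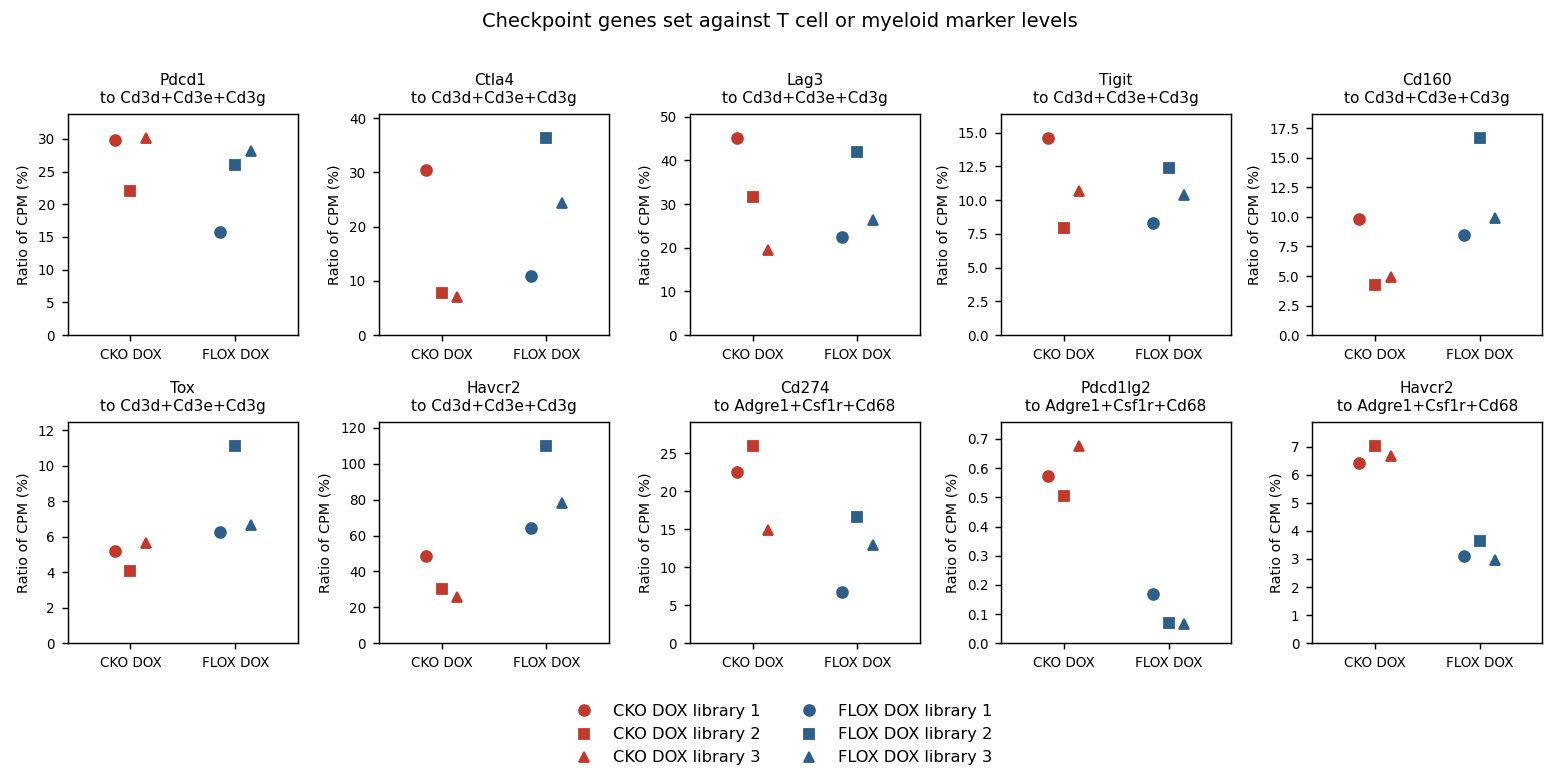
Ratio of the CPM of each gene to the summed CPM of Cd3d, Cd3e and Cd3g, or of Adgre1, Csf1r and Cd68, in percent (vertical axes), in the 3 CKO DOX and 3 FLOX DOX libraries; marker shapes give the library number. The ratios of Pdcd1, Lag3 and Tigit to CD3 overlap between the genotypes, those of Tox and Havcr2 to CD3 are lower in every CKO library, and those of Pdcd1lg2 and Havcr2 to the myeloid markers are higher in every CKO library.

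The ligands and Havcr2 were set against the macrophage genes Adgre1, Csf1r and Cd68, since myeloid cells also make them. Over the macrophage and monocyte markers the median log2 fold change was 0.04, with 6 of 10 positive, 0 called by edgeR and none at 0 in all libraries. Without CKO library 1 that median was 0.41 and edgeR called 1 of 10, beside 500 of 17125 genes, and without floxed library 2 it was -0.18. They had a summed level of 1019 to 3448 CPM in CKO and 1759 to 3566 CPM in floxed hearts. The denominator genes Adgre1, Csf1r and Cd68 had log2 fold changes of -0.18, 0.01 and -0.65. Ly6c2, Ptprc and Ccr2 of the same list had 1.99, 1.11 and 1.02. Ly6c2 measured 24.3, 196 and 151 CPM in CKO libraries 1, 2 and 3, against 40.0, 14.0 and 39.2 CPM in floxed libraries 1, 2 and 3. The ratios below thus depend on the marker genes taken. Havcr2 came to 6.42%, 7.01% and 6.67% of the macrophage sum in CKO libraries 1, 2 and 3, against 3.10%, 3.64% and 2.98% in floxed libraries 1, 2 and 3. This ratio varied little within each genotype and was higher in every CKO library, CKO library 1 included (log2 difference 1.05, exact permutation p = 0.1, the smallest possible, adjusted 0.25, n = 3 each). Pdcd1lg2 came to 0.573%, 0.506% and 0.675% in CKO libraries 1, 2 and 3, against 0.168%, 0.0709% and 0.0658% in floxed libraries 1, 2 and 3, on the few reads given above (log2 difference 2.66, exact permutation p = 0.1, adjusted 0.25, n = 3 each). Cd274 came to 22.5%, 25.9% and 14.8% in CKO libraries 1, 2 and 3, against 6.75%, 16.5% and 12.9% in floxed libraries 1, 2 and 3, with overlap (log2 difference 0.86, exact permutation p = 0.2, n = 3 each). Against Ptprc, a marker of all leukocytes, the log2 differences were -0.18 for Havcr2 and -0.37 for Cd274, the opposite sign, and 1.43 for Pdcd1lg2.

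Other genes of the checkpoint and costimulatory system were read from lists, and 0 members of any of these lists passed over all genes in edgeR. Without CKO library 1 edgeR called 7 of 14 other inhibitory receptors, 8 of 11 costimulatory receptors, 2 of 18 ligands, 5 of 16 regulators, 5 of 12 signalling genes and 10 of 11 T cell markers. DESeq2 with all libraries called 2 other inhibitory receptors, 5 costimulatory receptors and 2 signalling genes, and 0 ligands and 0 regulators. Over all genes, edgeR without CKO library 1 called 500 of 17125 and DESeq2 243 of 16591, in either direction. In edgeR with all libraries 53.8% of all genes were positive. Among 14 other inhibitory receptors 12 were positive and the median was 0.93, with 6 at an unadjusted p under 0.05. The NK receptor genes Klrd1 and Klrc1 had log2 fold changes of 2.16 and 2.66, Btla, a receptor for HVEM, 1.59, and Cd96, a receptor for CD155, 2.21. All 11 tested costimulatory receptors were positive with a median of 1.96, and all 11 had an unadjusted p under 0.05, beside 4.37% of all genes. Among them Tnfrsf4, which encodes OX40, measured 8.81, 9.67 and 11.5 CPM in CKO libraries 1, 2 and 3, against 5.34, 3.47 and 4.61 CPM in floxed libraries 1, 2 and 3. It resembled Ctla4 in that CKO library 1 lay near the other CKO libraries. Cd226, which competes with TIGIT for CD155, had a log2 fold change of 2.82, Cd27 2.28 and Crtam 1.77.

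Ligands outside the 9 were mixed. Of 18 tested, 10 had positive and 8 negative log2 fold changes (median 0.23), and 2 had an unadjusted p under 0.05. Tnfrsf14, which encodes HVEM, the ligand of CD160 and BTLA, had a log2 fold change of 1.22 and an edgeR adjusted p of 0.665. Cd86, a ligand of CTLA-4 and CD28, measured 14.3, 46.3 and 47.8 CPM in CKO libraries 1, 2 and 3, against 24.0, 12.0 and 15.9 CPM in floxed libraries 1, 2 and 3. Tnfsf9, the ligand of the costimulatory receptor 4-1BB, had a log2 fold change of 0.79 with no overlap. Lgals3, encoding galectin-3, a ligand of LAG-3, measured 184, 502 and 351 CPM in CKO libraries 1, 2 and 3, against 640, 525 and 581 CPM in floxed libraries 1, 2 and 3. It was lower in every CKO library, as 5.98% of all genes were, with a log2 fold change of -0.75 and an edgeR adjusted p of 0.758.

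Regulators and signalling genes lay mostly on the positive side. All 16 exhaustion and effector regulators were positive (median log2 fold change 0.77), and 6 had an unadjusted p under 0.05. Of all genes, 53.8% were positive and 4.37% were higher at that p. Tbx21, which encodes T-bet, had 2.19, Irf4 1.50 and Nr4a3, a gene induced by T cell receptor signalling, 1.27. Nfatc1, encoding an NFAT factor, measured 44.9, 63.5 and 60.8 CPM in CKO libraries 1, 2 and 3, against 39.7, 37.5 and 39.1 CPM in floxed libraries 1, 2 and 3, with no overlap and a log2 fold change of 0.54 (edgeR adjusted p = 0.607). Of 12 checkpoint signalling genes 11 were positive (median 0.78), 5 had an unadjusted p under 0.05, and the T cell genes Sh2d1a, Lat and Zap70 had log2 fold changes of 2.53, 2.02 and 1.80. The phosphatase genes Ptpn6 and Ptpn11, whose products SHP-1 and SHP-2 act downstream of PD-1, had log2 fold changes of 0.85 and -0.25.

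On the interferon-gamma route, which induces PD-L1 in many cell types, 9 of 11 genes were positive (median log2 fold change 0.21). At an unadjusted p under 0.05, 2 were higher, beside 4.37% of all genes. Ifng itself measured 2.34, 11.6 and 11.1 CPM in CKO libraries 1, 2 and 3, against 4.25, 0.419 and 0.977 CPM in floxed libraries 1, 2 and 3. Irf1 measured 95.9, 283 and 225 CPM in CKO libraries 1, 2 and 3, against 116, 84.2 and 101 CPM in floxed libraries 1, 2 and 3, so that, as for Cd274, CKO library 2 was the highest, while CKO library 1 lay inside the floxed range. Socs1, an inhibitor of cytokine signalling, had a log2 fold change of 1.64 and Jak2 0.45. Without CKO library 1 edgeR called 2 of these 11 genes, beside 500 of 17125 genes over the whole table.

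Markers of other cell types were read in the same way. The 6 regulatory T cell genes were all positive, at a median of 0.92 (log2). Il2ra, the alpha chain of the interleukin 2 receptor, had 1.77, while Foxp3, their defining factor, measured 0.190, 1.10 and 0.548 CPM in CKO libraries 1, 2 and 3, against 0.622, 0.0599 and 0.163 CPM in floxed libraries 1, 2 and 3. NK and cytotoxic genes had a median of 1.78, with 10 of 11 positive and a summed level of 157 to 734 CPM in CKO and 79.7 to 179 CPM in floxed hearts; Nkg7 had 2.16, Gzmk 2.68, Klrk1 1.89 and Ccl5 1.85. The NK receptor genes Ncr1 and Klrb1c had 0.36 and -0.17, with no more than 3.66 CPM in any library. Cell division genes had a median of 1.97 with 6 of 6 positive and a summed level of 41.2 to 261 CPM in CKO and 30.6 to 59.0 CPM in floxed hearts. Dendritic cell genes were positive for 6 of 6 tested, with a median of 1.07; Clec9a and Xcr1, markers of cross-presenting dendritic cells, had 1.12 and 2.36, with no overlap between the genotypes. The thymus lies next to the heart; of its defining genes Rag1 was at 0 in all libraries, and Rag2 and Ptcra measured at most 0.0599 and 0.157 CPM. The 4 thymocyte genes that could be tested had a median log2 fold change of 1.26, 3 of them positive. The other gene, Dntt, had the smallest p of this list. Its log2 fold change was -2.86, and it lay lower in every CKO library, as given at the end. Themis, which mature T cells also express, measured 2.41, 14.2 and 19.0 CPM in CKO libraries 1, 2 and 3, against 3.22, 1.50 and 1.25 CPM in floxed libraries 1, 2 and 3. Ccr9 had a log2 fold change of 1.95 at no more than 1.79 CPM, and the summed level of the list was 8.43 to 32.8 CPM in CKO and 10.8 to 13.1 CPM in floxed hearts. Lymph node and B cell markers summed to 22.8 to 111 CPM in CKO and 21.8 to 42.8 CPM in floxed hearts, mostly from Ccl21a, with Glycam1 at 0 in all libraries. In edgeR 0 members of these lists were called. Without CKO library 1 edgeR called 7 of 11 NK and cytotoxic genes, 6 of 6 cell division genes, 2 dendritic cell genes, and 1 each of the regulatory T cell, thymocyte and lymph node and B cell genes. DESeq2 called 2 NK and cytotoxic, 2 thymocyte, 2 dendritic cell and 1 cell division genes. Over all genes, edgeR without CKO library 1 called 500 of 17125 and DESeq2 243 of 16591. Neutrophil, endothelial, fibroblast and cardiomyocyte markers had median log2 fold changes of -0.65, 0.30, -0.17 and -0.30, with 0 called in each by edgeR, with or without CKO library 1, and 1 cardiomyocyte marker called by DESeq2. The part of T cell, NK cell, dendritic cell and cell division transcripts in the levels of the checkpoint genes was not tested beyond the ratios above.

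**Figure D4:**
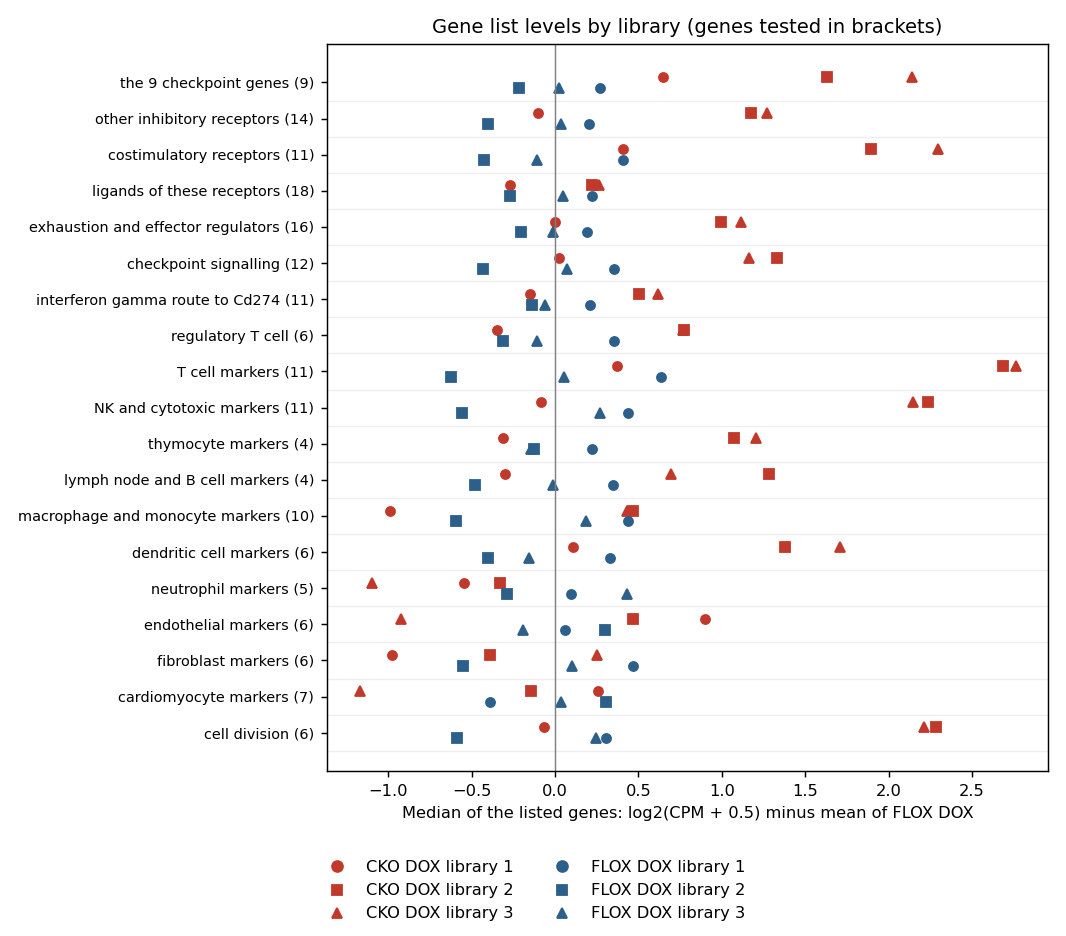
Level of each gene list in each library (horizontal axis), as the median over its tested genes of log2(CPM + 0.5) relative to the floxed mean of each gene, with the number of genes tested in brackets; red markers are CKO DOX, blue markers FLOX DOX, and shapes give the library number. The T cell, NK and cytotoxic, cell division and checkpoint lists lie well above the floxed libraries in CKO libraries 2 and 3, while CKO library 1 lies inside the floxed range for the T cell, NK and cytotoxic and cell division lists and above it for the checkpoint genes, at 0.65 against at most 0.27.

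For each of the 9, the gene with the nearest pattern over the 6 libraries was sought among 15116 genes with a mean of at least 1 CPM, by the root mean square difference of log2(CPM + 0.5) after subtracting the mean of each gene. Pdcd1 was nearest to Ikzf3, a lymphocyte transcription factor gene, at 0.169, where the median over all candidates was 1.38. Cd274 was nearest to Psmb10, an immunoproteasome subunit gene, at 0.127 against a median of 0.692. Havcr2 was nearest to Myo1g, a myosin gene of blood cells, at 0.0778 against 0.733. The nearest to Lag3 was the dendritic cell gene Xcr1 (0.165), to Tigit the T cell adaptor gene Sh2d2a (0.158), to Ctla4 the DNA polymerase gene Pole (0.156) and to Tox the cell cycle gene Cks2 (0.121). The nearest to Cd160 was Celsr1 (0.0476) and to Pdcd1lg2 Faah (0.0904). With 6 libraries and this many candidates, a close pattern is a description only.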

How the data were processed

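Stranded mRNA libraries of mouse hearts were sequenced, per the labels' protocols. HISAT2 2.1.0, featureCounts 1.6.2 and the build mm10 are among the names in the submitters' processing notes, without a role for each. The deposited tables give raw counts (35618 genes, not normalized) and, in FPKM, the authors' length-scaled values (35606 genes); no library was pooled, and 0 columns of other samples were present. From the counts, CPM were computed here with TMM-scaled library sizes, and CKO minus floxed was tested with edgeR 4.0.16 in R 4.3.3 (filterByExpr at a minimum count of 10, which kept 16591 genes holding 99.8% of the counts; robust quasi-likelihood test, genotype as the only term, Benjamini-Hochberg over all genes tested, threshold 0.05). Standard errors came from the F statistic. At about 18.4 counts per CPM in floxed library 3, genes under 1 CPM rest on few reads.

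Alternatives were RLE scaling, no filter, a minimum mean of 1 CPM, limma-voom (limma 3.58.1), DESeq2 1.42.0, limma on the deposited FPKM (pseudocount 1 or 0.1, or a minimum mean of 0.1), a replicate block, omission of each library in turn, and other denominators for the ratios. The fits were tested on simulated counts drawn gene by gene. There DESeq2 made a larger share of false calls than edgeR or limma-voom, well above its nominal threshold. The 9 genes and the lists were chosen with earlier results of these data known, so no list was tested as a set. The genes named were the 9, Gsdmd, up to 4 genes per list with the smallest p, defining markers whose level touches a result, and the nearest-pattern gene of each of the 9. A gene and a motif that these rules name are not reported here. The PD-1 phosphatase genes and Cd4 were named for their role, after their values were seen. Promoters are from RefSeq on GRCm38.p6. Figures were drawn with matplotlib 3.10.9.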

Additional observations from a re-analysis of the deposited data

How the results depend on the processing

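All 9 checkpoint genes had positive log2 fold changes under each of the 15 alternatives. The count of genes called over the whole table was 2 with all libraries and default settings, 10 with no filter on low counts, 243 in DESeq2, 1 in limma-voom, 0 with the replicate block, and 0 to 500 with each library left out, the 500 being without CKO library 1. The count of checkpoint genes called was 4 in DESeq2 and 0 to 7 with each library left out, and 0 otherwise. Their median log2 fold change was 1.69, and 0.88 on log2(FPKM + 1), with or without the FPKM minimum, and 1.13 on log2(FPKM + 0.1), scales that understate changes of low genes; it was 1.15 to 2.13 with each library left out. The ratios of Cd274 and Havcr2 to macrophage genes turned to -0.37 and -0.18 against Ptprc. With each library left out, the log2 differences of the ratios to CD3 ran from -0.23 to 0.37 for Lag3 and from -0.15 to 0.29 for Tigit; the cause was not tested. The labels state no pairing by replicate number. Deviations of same-numbered libraries correlated at -0.614, -0.354 and 0.0725 across genes, and those of other pairs at -0.565 to 0.655. With so few libraries, these values cannot settle whether there was a pairing. The block value is a fit to shared numbers only. Under the block 0 checkpoint genes were called and their median was 1.42. Depth limits Pdcd1lg2 and Tox most, at 5 to 45 counts per floxed library.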

Other observations

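Dntt, which encodes terminal deoxynucleotidyl transferase, the enzyme that adds bases at antigen receptor junctions in lymphocyte precursors, lay lower in every CKO library, unlike the T cell genes. It measured 0.190, 0.105 and 1.10 CPM in CKO libraries 1, 2 and 3, against 3.22, 3.36 and 3.85 CPM in floxed libraries 1, 2 and 3, a log2 fold change of -2.86 with an edgeR adjusted p of 0.555. The recombinase genes Rag1 and Rag2, which act in the same precursors, had at most 1 count in any library. Fgl1, a secreted ligand of LAG-3 that was too low to be tested, measured 0.0634, 0.105 and 0.299 CPM in CKO libraries 1, 2 and 3, against 0.415, 0.479 and 0.434 CPM in floxed libraries 1, 2 and 3, every CKO library below every floxed library. Fgl1 rested on 1, 2 and 6 counts in CKO libraries 1, 2 and 3, against 8 counts in each floxed library. Of all genes tested, 5.98% lay wholly lower in CKO libraries. The genes named in this section were chosen after their values were seen.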
